A study of Mus musculus with 64 samples.

Results

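The genes described here encode parts of Toll-like receptor sensing and signalling, and number 10 of the 34328 protein-coding and lncRNA genes of the annotation. They are the autosomal receptors Tlr1, Tlr2, Tlr3, Tlr4, Tlr6 and Tlr9, the chaperone Unc93b1, the adaptor Myd88, the kinase Irak4 and the ubiquitin ligase Traf6. They were chosen by name, and all 10 were found and are accounted for.

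Toll-like receptors are membrane proteins that recognise conserved molecules of microbes, and B cells use them as a second route of activation beside the antigen receptor. Tlr1, Tlr2, Tlr4 and Tlr6 act mainly at the cell surface, where Tlr2 pairs with Tlr1 or Tlr6 to bind bacterial lipoproteins and Tlr4 senses lipopolysaccharide. Tlr3 and Tlr9 sense double-stranded RNA and CpG DNA in endosomes, and Unc93b1 is the chaperone that carries the nucleic acid sensors there. Most of these receptors signal through the adaptor Myd88, which recruits the kinase Irak4, and the ubiquitin ligase Traf6 passes the signal on towards NF-kB and the MAP kinases. Tlr3 is the exception and signals through another adaptor. The stimulus of the study, CpG, is the ligand of Tlr9, so Tlr9 and the proteins it signals through receive it.

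The cells were splenic B cells selected with an antibody to CD23, from female F1 mice of a mus x cast cross. The mothers were C57BL/6 mice with a heterozygous Xist deletion and the fathers were M. m. castaneus mice. Every group shared this cross, which the submitters describe as a model of skewed X inactivation, and the labels do not say which daughters carried the deletion or how old they were. Cells were unstimulated (0 h) or kept with 1 µM CpG for 12 or 24 h.

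The assay was CUT&RUN, which uses an antibody to bring a nuclease to its target so that the DNA nearby is cut out and sequenced. The 6 antibodies recognised H3K27ac, a modification of active promoters and enhancers, the repressive modifications H2AK119Ub, H3K27me3 and H3K9me3, and Ring1B and Suz12, subunits of the Polycomb complexes that deposit H2AK119Ub and H3K27me3. In time order, H3K27ac, Ring1B and Suz12 each had 3, 3 and 3 libraries, H2AK119Ub had 4, 3 and 5, H3K27me3 had 3, 3 and 4 and H3K9me3 had 4, 4 and 4. These 61 libraries of the 64 samples each had a list of peaks called from reads of the Cast allele. The 3 IgG samples were not analysed here, so there is no background measured with a control antibody. Each value below is the percent of a gene region, the gene with 2 kb on each side in mm10, that the peaks of a library covered. A value of 0 means that no peak was listed there, which is not the same as absence of the mark. The cells were profiled in bulk and only on the Cast allele, so a mark in more cells and more of a mark per cell cannot be told apart, and the C57BL/6 allele is not described.

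List lengths differed between groups. At 0, 12 and 24 h the peaks covered on average 1.58%, 3.48% and 3.43% of the autosomes for H3K27ac, 1.59%, 5.20% and 5.36% for H2AK119Ub and 2.11%, 4.28% and 9.66% for H3K27me3. For Ring1B and Suz12, whose lists hold a set top share of the signal, the means lay between 2.35% and 3.22%. Sequencing depth is unknown. The lists were checked against cell type markers. All 10 B cell markers had an H3K27ac peak, and their median coverage at 0, 12 and 24 h was 49.9%, 94.2% and 84.0%, with no H3K27me3 peak on any of them. Of 8 T cell markers 2 had an H3K27ac peak in any library, and of 8 myeloid markers 3 did, and the mean coverage of either list stayed under that of the B cell list, at 0% to 7.02% per library for T cell genes, 0% to 4.66% for myeloid genes and 22.0% to 89.6% for B cell genes.

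Tlr1 (chr5:64924680-64933600) and Tlr6 (chr5:64953092-64970942) are neighbours in mm10, 19491 bases apart. Tlr2 lay at chr3:83836272-83841824, Tlr3 at chr8:45395665-45411075, Tlr4 at chr4:66827551-66846581 and Tlr9 at chr9:106222598-106226876. Unc93b1 lay at chr19:3935158-3949340, Myd88 at chr9:119335934-119340018, Irak4 at chr15:94543613-94568317 and Traf6 at chr2:101678420-101701668. Regions of 3 members overlapped another gene, taken without flanks, namely Fam114a1 for Tlr6, Acaa1a for Myd88 and Pus7l for Irak4. A peak in the shared stretch cannot be assigned to either gene.

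The bases just before the start site of 4 members are shown because the peaks described below sit over or beside them. They are the 250 bases up to the start site in RefSeq (GRCm38.p6, the assembly of mm10), printed 5′ to 3′ on the strand of the gene, with CG dinucleotides in capitals. The stretches are chr15:94543410-94543659 for Irak4 (plus strand), chr2:101678170-101678419 for Traf6 (plus strand), chr9:106222348-106222597 for Tlr9 (plus strand) and chr8:45410381-45410630 for Tlr3 (minus strand).
Irak4: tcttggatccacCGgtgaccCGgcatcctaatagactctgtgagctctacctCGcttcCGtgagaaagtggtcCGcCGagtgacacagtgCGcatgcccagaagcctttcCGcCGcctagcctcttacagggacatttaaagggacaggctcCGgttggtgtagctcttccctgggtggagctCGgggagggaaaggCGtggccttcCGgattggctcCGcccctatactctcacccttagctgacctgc
Traf6: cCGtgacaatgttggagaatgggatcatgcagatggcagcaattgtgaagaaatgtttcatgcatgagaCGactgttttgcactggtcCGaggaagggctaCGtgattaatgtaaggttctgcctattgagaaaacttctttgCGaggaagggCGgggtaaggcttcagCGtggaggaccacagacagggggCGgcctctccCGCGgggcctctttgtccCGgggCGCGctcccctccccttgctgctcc
Tlr9: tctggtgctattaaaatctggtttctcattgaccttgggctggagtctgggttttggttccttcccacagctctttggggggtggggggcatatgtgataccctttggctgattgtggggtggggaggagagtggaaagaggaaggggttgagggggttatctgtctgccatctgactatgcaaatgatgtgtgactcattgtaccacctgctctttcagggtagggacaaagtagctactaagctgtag
Tlr3: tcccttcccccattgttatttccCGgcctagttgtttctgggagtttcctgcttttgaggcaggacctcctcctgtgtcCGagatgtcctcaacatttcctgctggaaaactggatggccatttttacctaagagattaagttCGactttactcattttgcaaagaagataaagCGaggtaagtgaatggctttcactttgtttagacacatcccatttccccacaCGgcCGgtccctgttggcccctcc
The Irak4 stretch held 14 CG dinucleotides, that of Traf6 13 and that of Tlr3 6, against a median of 6 over 32619 RefSeq promoters. The Tlr9 stretch held 0 and so has no capitals, as did 7.77% of those promoters. Promoter entries matched 8 of the 10 members, all but Tlr4 and Unc93b1. The stretches of these 8 genes were searched on both strands for 6 motifs. A strict NF-kB motif (GGGA, any base, TTTCC), found in 0.359% of promoters, occurred in Tlr3 as GGGAGTTTCC, with its first base at -211 from the start site. A looser NF-kB motif (GGG, any 5 bases, CC), which includes the strict one, was found in 46.1% of promoters and in Irak4, Traf6, Tlr2, Tlr3 and Tlr6. The AP-1 motif TGANTCA (6.78% of promoters) began at -58 in Tlr9, the PU.1 motif GAGGAAGT (2.46%) was in Tlr1, and an IRF motif (GAAA, any 2 bases, GAAA; 2.99%) was in Myd88 and Tlr6. The CRE motif TGACGTCA (1.56%) was in none of these windows. A match describes letters and does not show binding.

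Of the 10 genes, 9 carried H3K27ac peaks and Myd88 carried none. At 0, 12 and 24 h the median of the members' mean H3K27ac coverage was 25.4%, 39.7% and 38.8%, against 0% at each time over 20665 autosomal protein-coding genes. An H3K27ac peak in every library of a time was found at 3 members at 0 h, 8 at 12 h and 7 at 24 h, while 4.66%, 22.5% and 24.5% of the coding genes had this at 0, 12 and 24 h. No H3K9me3 peak was listed at any of the 10 genes in any of 12 libraries, so none was tested for it, while 52.3% of the 2332 genes tested passed. At 24 h, 7.82% of coding genes had an H3K9me3 peak in any library. Over all 6 antibodies, the libraries with a peak ranged from 37 of 61 at Traf6 to 1 of 61 at Myd88.

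**Figure D1:**
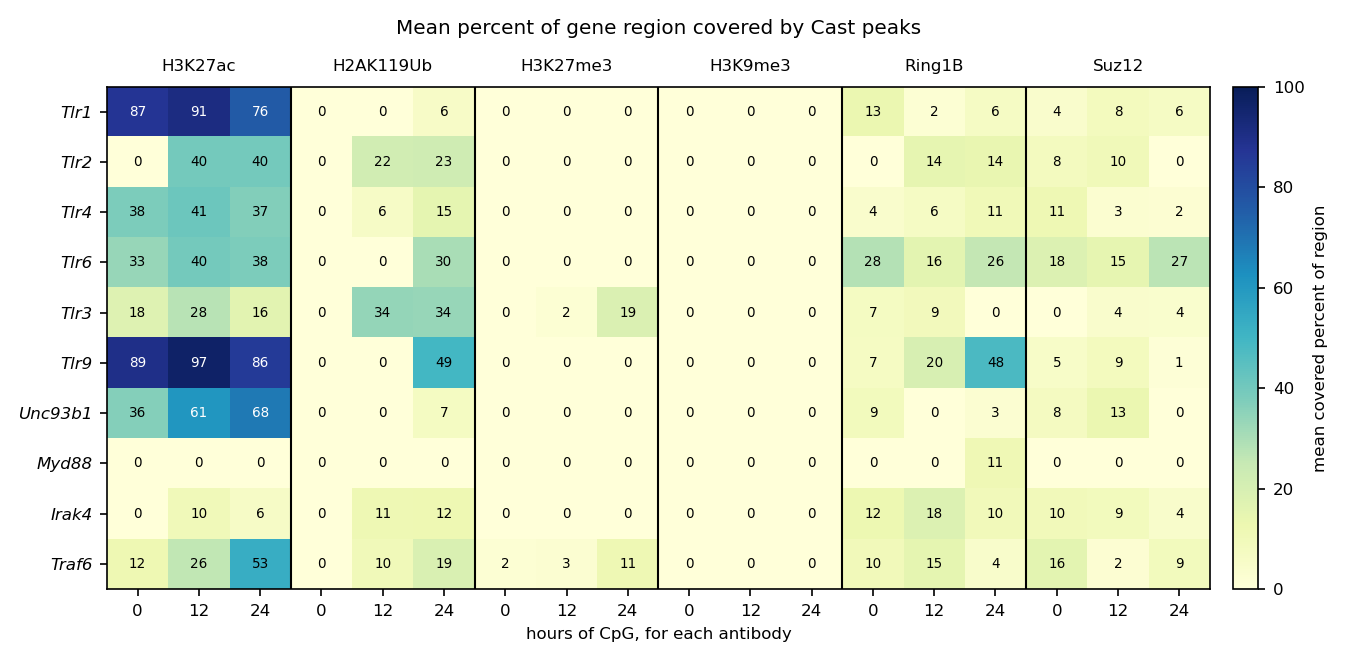
Mean percent of each gene region covered by Cast peaks (colour and number, rounded to whole percent) for the 10 genes in rows and the 6 antibodies at 0, 12 and 24 h of CpG in columns, with 3 to 5 libraries a group. Tlr9 and Tlr1 were dark for H3K27ac at each time, the H2AK119Ub columns at 0 h and all H3K9me3 columns were at 0, and Myd88 was at 0 in all groups but Ring1B at 24 h.

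Changes over time were tested with limma's moderated F-test over 0, 12 and 24 h, fitted for each antibody on all genes with a peak in at least 3 of its libraries. A gene passed at a Benjamini-Hochberg adjusted p under 0.05 over all genes tested, and its direction between 2 times came from the contrast at an unadjusted p under 0.05. Only Irak4 for H2AK119Ub and Traf6 for H3K27me3 passed among the 10 members. Exact permutation p-values below are unadjusted and come from the F statistic of a single gene over all arrangements of its libraries.

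Tlr9, the receptor of the stimulus, was covered over most of its region by H3K27ac at every time. Its region was covered to 68.4%, 100% and 100% in the 0 h libraries, 100%, 100% and 90.3% at 12 h and 100%, 56.6% and 100% at 24 h. The 3 groups overlapped, and the region was fully covered in 6 of the 9 libraries (adjusted p = 0.820, limma). The peak over the start site was 10.8 to 30.3 kb wide and began between -20.1 and -8.37 kb from it (negative before the start site), while the gene itself spans 4279 bases. A promoter, taken as 250 bases before to 50 after the start site, with an H3K27ac peak in all 9 libraries was found at 1.61% of the 26794 genes with a RefSeq promoter, among them Tlr9 and Tlr1. That pattern and the other promoter patterns below were chosen after their values were seen.

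H2AK119Ub at Tlr9 was listed only at 24 h, and there it differed widely between libraries. Coverage was 0% in all 4 libraries at 0 h and all 3 at 12 h, and 95.8%, 4.29%, 77.8%, 0% and 69.4% in the 5 libraries at 24 h. Of the 24 h libraries 3 were high and 2 were at or near the 0 h value. The mean at 24 h was 49.5% ± 44.3 (SD, n = 5), and the F-test did not pass (adjusted p = 0.0719, limma, against an exact permutation p of 0.0328). The 3 libraries with large values covered 8.65%, 4.56% and 6.62% of the autosomes and the other 2 covered 4.59% and 2.40%. Bases covered at 24 h in at least 2 libraries were counted, of 3 for H3K27ac, 5 for H2AK119Ub and 4 for H3K27me3. They made up 100% of the Tlr9 region for H3K27ac and 77.8% for H2AK119Ub. With the whole region under H3K27ac, H2AK119Ub bases lay under it by this count wherever they were.

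Ring1B, the catalytic subunit that deposits H2AK119Ub, covered 0%, 20.4% and 0% of the Tlr9 region at 0 h, 0%, 43.7% and 16.1% at 12 h and 68.0%, 45.2% and 30.3% at 24 h. The 24 h values lay above all 0 h values, and the 12 h values overlapped both. This did not pass (adjusted p = 0.496, limma, and exact permutation p = 0.100). Suz12 peaks were listed at Tlr9 in 3 of 9 libraries, at 15.5% in a 0 h library, 25.5% in a 12 h library and 2.42% in a 24 h library. No library had an H3K27me3 peak there. By Euclidean distance over the 18 group means, among the protein-coding genes most like Tlr9 were AI467606 (distance 28.9) and Vps37b (30.6), against a median distance of 169 over 17724 genes.

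Unc93b1, which delivers Tlr9 to endosomes, had H3K27ac coverage of 0%, 42.9% and 66.4% at 0 h, 56.1%, 72.1% and 54.1% at 12 h and 87.8%, 56.1% and 60.4% at 24 h. The highest 0 h library lay among the stimulated ones, and no change passed (adjusted p = 0.431, limma). The 0 h library at 0% was the smallest H3K27ac list, with 1450 peaks over 0.663% of the autosomes, and Tlr3, Tlr6 and Traf6 were at 0% in it as well. H2AK119Ub appeared at Unc93b1 in 2 of 5 libraries at 24 h, at 33.2% and 2.74%, and in none before. Its Suz12 coverage was 15.4%, 0% and 7.29% at 0 h, 0%, 12.0% and 27.1% at 12 h and 0% in all 3 libraries at 24 h, and its Ring1B peaks were listed in 3 of 9 libraries at no more than 20.7%.

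Mean H3K27ac coverage of the surface receptors at 0 h ran from 0% at Tlr2 to 87.1% at Tlr1. Differences between genes were not tested. Tlr1 was the most covered, at 97.0%, 88.3% and 76.1% at 0 h, 99.2%, 100% and 74.5% at 12 h and 100%, 58.4% and 69.4% at 24 h. Tlr4 had 55.1%, 31.4% and 28.2% at 0 h, 49.7%, 54.7% and 18.8% at 12 h and 52.8%, 11.4% and 46.0% at 24 h. Values at both genes overlapped between all 3 times.

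Tlr6, the partner of Tlr2 for diacylated lipopeptides, had 0%, 46.2% and 53.6% at 0 h, 28.8%, 55.6% and 34.7% at 12 h and 44.7%, 24.0% and 45.4% at 24 h. The values of the 3 times overlapped here too. None of Tlr1, Tlr4 and Tlr6 passed the test (adjusted p = 0.669, 0.973 and 0.940, limma).

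Tlr2 was the surface receptor with no H3K27ac peak in any 0 h library. Coverage was 51.9%, 67.4% and 0% at 12 h and 58.1%, 37.0% and 23.8% at 24 h. All 3 libraries at 24 h lay above the 0 h libraries and 1 of the 3 at 12 h did not. The difference between 24 and 0 h was 39.6 percentage points (SE 16.6), and the F-test did not pass (adjusted p = 0.263, limma, and exact permutation p = 0.207). H3K27ac over the promoter in at least 5 of the 6 stimulated libraries and in none at 0 h was found at 4.63% of genes with a promoter, with Tlr2 and Irak4 among them.

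**Figure D2:**
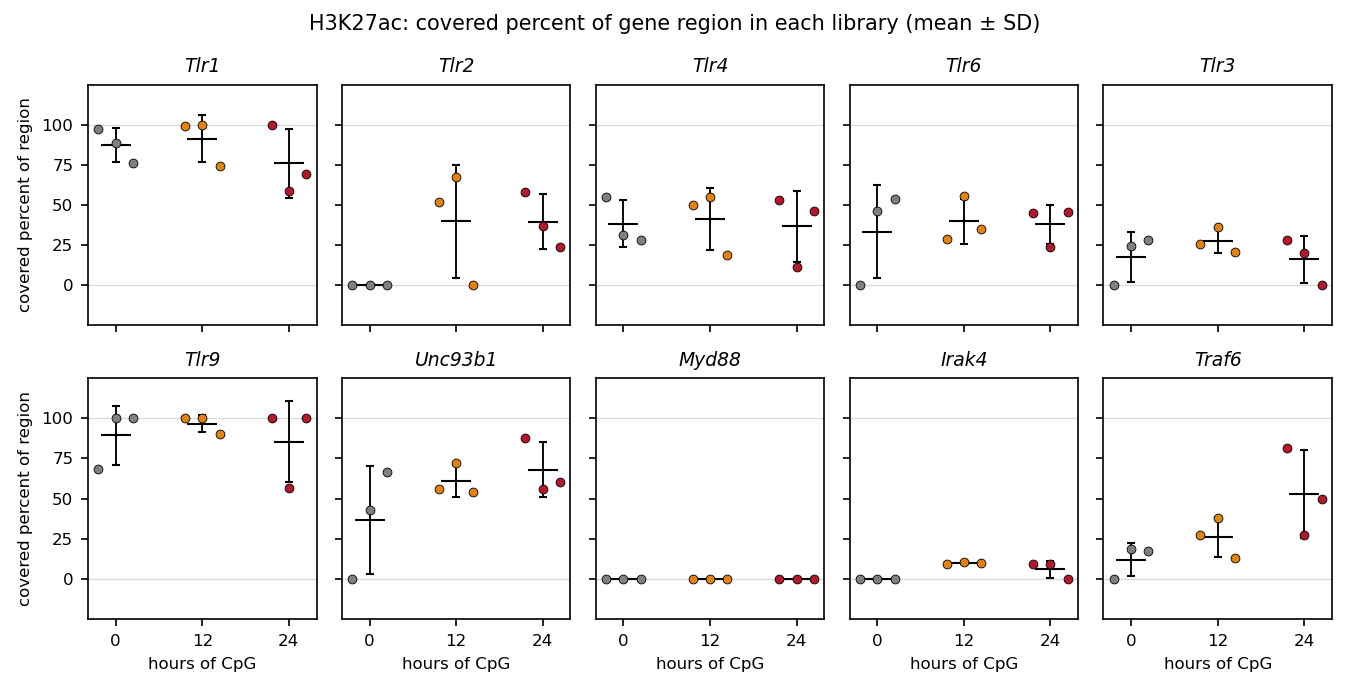
Percent of each gene region covered by H3K27ac peaks in every library at 0, 12 and 24 h of CpG (points), with the mean and SD (bars, n = 3 a time). Tlr1 and Tlr9 were high at each time, Tlr2 and Irak4 were at 0 in all 3 libraries at 0 h, Traf6 spread from 27.5% to 81.8% at 24 h, and Myd88 stayed at 0.

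None of the 9 members tested for H3K27ac passed, against 1.46% of all 9342 genes tested. That share was 0% after scaling by autosomal coverage and with 5 kb flanks, and with 1 library left out it lay between 0% (without replicate 2 or 3 at 0 h, replicate 1 at 12 h or replicate 3 at 24 h) and 8.99% (without replicate 2 at 12 h). The differences between 24 and 0 h ran from -11.2 percentage points at Tlr1 to 41.1 at Traf6, with a median of 12.0 over all genes tested. Of the 9 genes, Irak4 had the smallest adjusted p, 0.182. At an unadjusted limma p under 0.05, 20.9% of all genes tested passed, and Irak4 and Traf6 did among the members, with exact permutation p-values of 0.0286 and 0.0536.

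H2AK119Ub was listed at none of the 10 genes in any of the 4 libraries at 0 h. A peak in at least 1 library was listed at 5 genes at 12 h and at 9 genes at 24 h, Myd88 being the exception. The medians of the members' means at 0, 12 and 24 h were 0%, 3.08% and 17.1%, against 0%, 0% and 2.11% over autosomal coding genes. At 0, 12 and 24 h, 16.3%, 43.0% and 56.9% of those coding genes had a peak in at least 1 library. Of the 7 members tested, Irak4 passed, against 33.2% of all 13845 genes.

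Irak4, the kinase recruited by Myd88, had an H2AK119Ub peak in every stimulated library. It was covered to 0% in all 4 libraries at 0 h, to 13.1%, 9.54% and 11.7% at 12 h and to 10.8%, 13.6%, 10.7%, 15.9% and 9.36% at 24 h. All 8 stimulated libraries lay above all unstimulated ones, and those at 12 and 24 h overlapped. Means were 12.1% ± 2.65 at 24 h (SD, n = 5) and 11.4% ± 1.80 at 12 h (SD, n = 3), and the F-test passed (adjusted p = 0.0105, limma, and exact permutation p = 0.00148). Coverage was higher at 24 than at 0 h by 12.1 percentage points (SE 2.61) and higher at 12 than at 0 h by 11.4, calls that 31.0% and 22.0% of all genes tested received. The highest of the 24 h values came from the library with the lowest autosomal coverage, 2.40%. The call was lost after scaling by each library's autosomal coverage (adjusted p = 0.0877), in the gene body without flanks (0.0763) and with no filter on genes (0.103), and in lists cut to the strongest peaks Irak4 had a peak in too few libraries to be tested.

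The Irak4 peak lay over the start site, and the rest of the 24705 base gene had none of it. It began between -3.78 and -1.01 kb from the start site and ended between 0.639 and 3.57 kb past it. It lay over the CG-bearing stretch printed above. Irak4 shares that stretch with the Pus7l region, so peaks there cannot be assigned to either gene. A peak over the promoter in all 8 stimulated libraries and none of the 4 unstimulated ones was found at 1.96% of genes with a promoter. H3K27ac peaks lay at the same place, with coverage of 0% in all 0 h libraries, 9.30%, 10.5% and 9.68% at 12 h and 9.32%, 9.12% and 0% at 24 h. Of the bases with H2AK119Ub in at least 2 libraries at 24 h, 60.2% also had H3K27ac in at least 2, and all of the H3K27ac bases so counted lay under H2AK119Ub.

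Ring1B peaks were listed at the Irak4 promoter before stimulation. The 0 h lists held 26546 to 27656 peaks for Ring1B and 2100 to 4346 for H2AK119Ub, so their presence there cannot be compared. Ring1B was listed at that promoter in all 9 libraries, which was the case at 2.68% of genes with a promoter. Within its own list the peak stood high, with 0.581% to 8.63% of peaks having a higher signal. Over the whole region, coverage by Ring1B was 18%, 6.41% and 12.1% at 0 h, 32.4%, 9.46% and 12.3% at 12 h and 12.5%, 7.79% and 8.23% at 24 h. Suz12 was over the promoter in 3, 2 and 2 of 3 libraries at 0, 12 and 24 h, and a peak in at least 7 of 9 libraries was found at 6.28% of promoters. Neither changed past the threshold (adjusted p = 0.832 and 0.890, limma), and H3K27me3 was listed at Irak4 in 0 of 10 libraries.

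Traf6, the ubiquitin ligase below Irak4, carried peaks of H3K27me3, H2AK119Ub and H3K27ac, and H3K27me3 was higher at 24 than at 0 h. H3K27me3 covered 0%, 0% and 5.09% of its region at 0 h, 8.14%, 0% and 0% at 12 h and 8.93%, 10.8%, 13.9% and 12.1% at 24 h. All 24 h libraries lay above all others, and those at 0 and 12 h overlapped. The mean was 11.4% ± 2.09 at 24 h (SD, n = 4) and 1.70% ± 2.94 at 0 h (SD, n = 3), a difference of 9.72 percentage points (SE 2.47, adjusted p = 0.0158, limma, and exact permutation p = 0.0152). Of the 2 members tested Traf6 alone passed, a call shared by 56.8% of all 11914 genes tested, whose median difference between 24 and 0 h was 28.9 points, and the calls higher at 24 than at 0 h and at 24 than at 12 h by 56.5% and 46.4%. The peak began before the gene and ended between 0.008 and 1.30 kb past the start site in all 4 libraries at 24 h, and 2 of these libraries had a further peak past the gene's far end. A promoter peak in all 24 h libraries and none at 0 h was found at 4.96% of promoters. The call was lost when values were scaled by each library's autosomal coverage (adjusted p = 0.363) and when the flanks were left out (0.102). It was lost too in 2 kb each side of the start site (0.0551), a window chosen after seeing the data, and with a replicate block. In lists of equal length Traf6 had a peak in too few libraries to be tested.

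H2AK119Ub at Traf6 was 0% in all 4 libraries at 0 h, 19.3%, 6.55% and 4.15% at 12 h and 38.5%, 5.83%, 12.6%, 13.8% and 24.6% at 24 h. Every stimulated library had a peak in the region. In replicates 2 and 3 at 12 h and replicate 2 at 24 h it lay only in the flanks, outside the gene. At 24 h 4 of 5 libraries had it over the promoter, and at 12 h 0 of 3 did. The test did not pass (adjusted p = 0.0787, limma, and exact permutation p = 0.0352). H3K27ac was 0%, 18.5% and 17.5% at 0 h, 27.3%, 38.0% and 13.0% at 12 h and 81.8%, 27.5% and 50.0% at 24 h. All 24 h values lay above all 0 h values, and the difference of 41.1 points (SE 14.3) did not pass (adjusted p = 0.237, limma). At 24 h, 85.1% of the bases with H2AK119Ub in at least 2 libraries also had H3K27ac in at least 2, and 9.31% of the region had H3K27me3 and H3K27ac by that count.

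Tlr3, the endosomal sensor of double-stranded RNA, carried H2AK119Ub from 12 h on. Values were 0% in all 4 libraries at 0 h, 22.9%, 39.5% and 39.5% at 12 h and 51.7%, 46.9%, 16.0%, 0% and 53.3% at 24 h. All 3 libraries at 12 h and 4 of 5 at 24 h lay above the 0 h libraries. The adjusted p of 0.0550 (limma) missed the threshold, and the exact permutation p was 0.0444. The library at 0% was the 24 h library with the lowest autosomal coverage, and without it the adjusted p was 0.00652 (limma). In that fit 48.8% of all genes tested passed, against 33.2% with every library. The peaks over the start site began between -10.5 and -2.96 kb from it and ended between 0.416 and 7.64 kb past it, and the promoter was covered in 0 of 4, 3 of 3 and 4 of 5 libraries at 0, 12 and 24 h.

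H3K27ac at Tlr3 was 0%, 24.7% and 28.1% at 0 h, 25.6%, 36.4% and 21.0% at 12 h and 28.2%, 19.9% and 0% at 24 h, with the 3 times overlapping (adjusted p = 0.650, limma). Beside Traf6, Tlr3 was the other member with an H3K27me3 peak in any library. It had 0% in all 3 libraries at 0 h, 0%, 4.99% and 0% at 12 h and 3.07%, 0%, 39.2% and 31.9% at 24 h. The 24 h libraries ranged down to 0% and overlapped the others, and the F-test did not pass (adjusted p = 0.138, limma). These peaks lay inside the gene, in 1 library across its start site, or entered the region from beyond its far end.

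**Figure D3:**
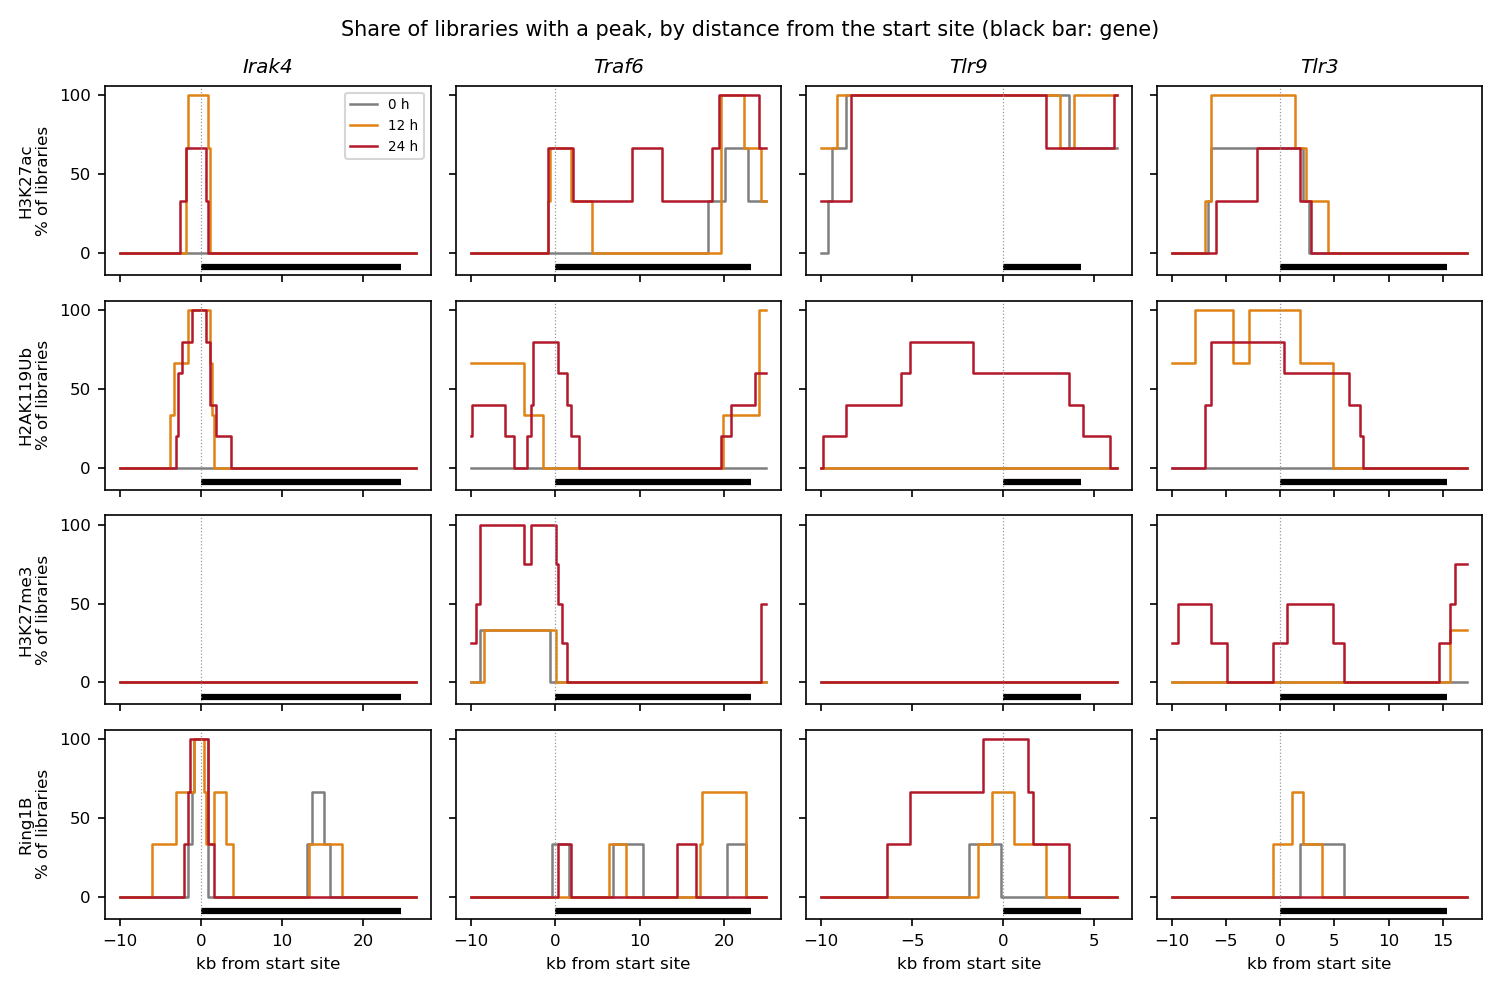
Share of libraries with a peak (vertical axis, percent) at each distance from the RefSeq start site (horizontal axis, kb, positive into the gene) for Irak4, Traf6, Tlr9 and Tlr3 and 4 antibodies, at 0 h (grey), 12 h (orange) and 24 h (red). The Irak4 peaks of H2AK119Ub, H3K27ac and Ring1B stood over the start site, the Traf6 H3K27me3 peaks at 24 h reached from before the start site to just past it, and H3K27ac at Tlr9 spanned the whole gene in at least 2 of 3 libraries at each time.

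The other receptors carried H2AK119Ub less evenly. Tlr6 had 0% in all libraries at 0 and 12 h and 67.1%, 19.9%, 23.1%, 0% and 41.0% at 24 h (adjusted p = 0.0601, limma, and exact permutation p = 0.0212). Its 24 h values exceeded the earlier ones in 4 of 5 libraries. Tlr1 had 0% at 0 and 12 h and 13.5%, 0%, 9.43%, 0% and 5.99% at 24 h (adjusted p = 0.112). Tlr2 had 0%, 64.9% and 0% at 12 h and 58.3%, 31.9%, 0%, 0% and 22.3% at 24 h, after 0% in all 4 libraries at 0 h (adjusted p = 0.362). Tlr4 was listed in 1 library at 12 h (18.5%) and 1 at 24 h (75.4%), too few to be tested, as was Unc93b1. All H2AK119Ub bases counted in at least 2 libraries at 24 h lay under H3K27ac at Tlr1 and Tlr2, and 42.9% of them did at Tlr6 and 38.6% at Tlr3. The count was out of 5 libraries for H2AK119Ub and 3 for H3K27ac, and such shares were not computed over other genes. In the 24 h library with the lowest autosomal coverage only Irak4 and Traf6 had an H2AK119Ub peak. Without that library Tlr1, Tlr3, Tlr6 and Tlr9 passed beside Irak4, 5 of 7 members tested, in a fit where 48.8% of all genes tested passed.

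**Figure D4:**
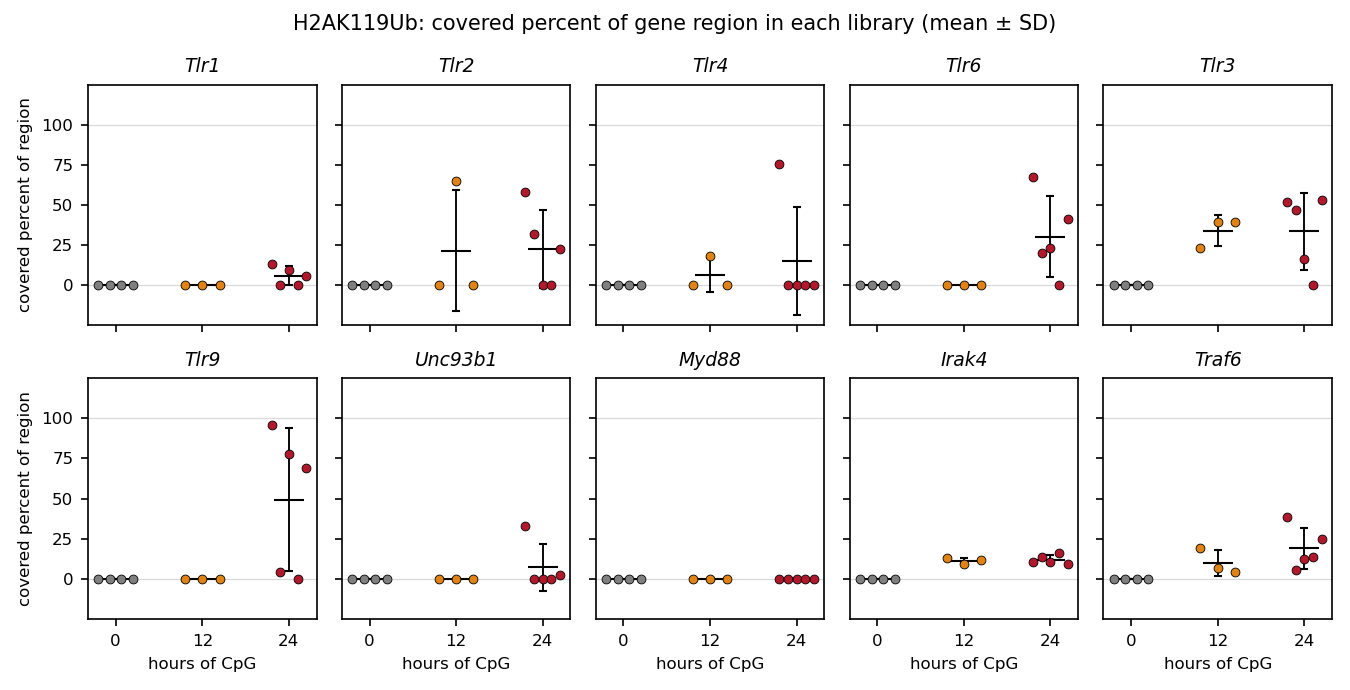
Percent of each gene region covered by H2AK119Ub peaks in every library at 0 h (n = 4), 12 h (n = 3) and 24 h (n = 5) of CpG (points), with the mean and SD (bars). All 0 h points were at 0, Irak4 was between 9.36% and 15.9% in every stimulated library, and Tlr9 was split at 24 h between 3 high libraries and 2 at or near 0.

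Myd88, the adaptor on which most of these receptors depend, had almost no peaks. Of 61 libraries, 1 had a peak in its region, a Ring1B peak at 24 h that covered 33.5%. It had no peak of H3K27ac, H2AK119Ub, H3K27me3, H3K9me3 or Suz12, and so was tested for no mark. At 24 h, 43.7% of autosomal coding genes had an H3K27ac peak in at least 1 library. How many reads could be assigned to the Cast allele at Myd88 is unknown, so a lack of peaks is not a lack of the marks. The stretch before its start site, chr9:119340019-119340268 on the minus strand, held 9 CG dinucleotides.

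Ring1B and Suz12 did not change at any member past the threshold, in 9 members tested for Ring1B and 7 for Suz12. Over all genes, 0.0850% of 17641 passed for Ring1B and 0% of 18049 for Suz12, and at an unadjusted p under 0.05 in limma 8.77% of the genes, 1582 in all, passed for Suz12 and 8.73% for Ring1B. At that unadjusted threshold no member passed for Suz12 and Tlr9 did for Ring1B. Tlr6 had the highest mean coverage of both among the members at 0 h. Its Ring1B values were 40.4%, 24.6% and 19.7% at 0 h, 0%, 29.4% and 17.8% at 12 h and 17.9%, 36.6% and 22.2% at 24 h. Its Suz12 values were 28.5%, 18.1% and 7.77% at 0 h, 15.8%, 15.6% and 13.1% at 12 h and 5.02%, 42.4% and 34.0% at 24 h. The times overlapped in both. Traf6 had Ring1B at 12.7%, 7.87% and 8.07% at 0 h, 19.8%, 18.5% and 6.87% at 12 h and 0%, 8.67% and 4.81% at 24 h, and Suz12 at 24.9%, 13.6% and 9.42%, then 0%, 6.99% and 0%, then 4.47%, 16.2% and 6.19% at the same times. The remaining members, Tlr1, Tlr2, Tlr3 and Tlr4, had either factor in 2 to 5 of 9 libraries, at no more than 41.2%.

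Other genes of the pathway were described from a list of 32 autosomal genes, namely receptors, co-receptors, adaptors, kinases and inhibitors. This list, too, was drawn up with earlier results known. For H2AK119Ub 2 of 15 tested rose, both higher at 24 than at 0 h, against 31.0% of all genes tested. Sigirr, a receptor that dampens Toll-like receptor signalling, had 0% at 0 h, 77.9% ± 7.85 at 12 h (SD, n = 3) and 89.9% ± 10.3 at 24 h (SD, n = 5; adjusted p = 2.72e-05, limma). It passed in 21 of 23 alternatives, failed with lists of equal length (adjusted p = 0.355, limma) and was not tested in 1. Tnfaip3, a deubiquitinase that restrains NF-kB, had 0% at 0 and 12 h and 16.8% ± 13.1 at 24 h (SD, n = 5; adjusted p = 0.0500, limma), and it passed in 6 of 23 alternatives, failing in 16 with adjusted p up to 0.134. For H3K27ac 1 of 25 rose, a call that 1.45% of all genes tested received, and it was Ly96, the co-receptor of Tlr4. Mean Ly96 coverage in time order was 0%, 52.3% ± 10.2 and 46.8% ± 9.60 (SD, n = 3 each; adjusted p = 0.0467, limma). Ly96 passed in 6 of 19 alternatives and failed in 11, among them scaling (adjusted p = 0.0871), 5 kb flanks (0.106) and each 0 h library left out (0.165, 0.301 and 0.239).

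For H3K27me3 3 of 7 rose, higher at 24 than at 0 h, against 56.5% of all genes tested. Lbp, which hands lipopolysaccharide to Cd14, had 0% at 0 h, 10.2% ± 9.60 at 12 h (SD, n = 3) and 49.6% ± 19.7 at 24 h (SD, n = 4; adjusted p = 0.00703, limma). The others were Sarm1, a TIR-domain adaptor with 41.0% at 24 h and 18% at 0 h (adjusted p = 0.0249, limma), and Tollip, an inhibitor of signalling with 8.90% at 24 h and 0.280% at 0 h (adjusted p = 0.0297, limma). Tollip passed in 5 of 20 alternatives and Sarm1 in 14, and scaling turned the Sarm1 difference below 0 (adjusted p = 0.452), while Lbp passed in all 18 in which it was tested. None of 27 passed for Suz12 and none of 30 for Ring1B, and no gene of the list was tested for H3K9me3. Of 6 X-linked genes of the pathway, 3 of 5 tested rose for H3K27me3, against 56.5% of all genes tested. They were Tab3, with 5.02%, 40.8% and 91.5% at 0, 12 and 24 h, Tlr7, with 0%, 8.59% and 69.4%, and Tlr8, with 0%, 0% and 23.8%, which passed in 4 of 20 alternatives. Tab3 also rose for H2AK119Ub, as 1 of 4 tested, against 31.0% of all genes tested. None of the 6 had an H3K27ac peak in any library. At 24 h, 43.7% of autosomal coding genes had an H3K27ac peak in at least 1 library. All X-linked values come from the Cast X alone, which is the X that is inactivated in a daughter that inherits the Xist deletion, so a change at these genes and a change of the inactive X as a whole cannot be told apart here.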

How the data were processed

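The authors deposited 1 SEACR peak list per library, called from reads of the Cast allele, and the file names mark those of the histone marks as "relaxed" and those of Ring1B and Suz12 as "stringent". Per the submitters' processing notes the build was mm10, and Trimmomatic 0.32, Bowtie2 2.3.4.1, Picard and deepTools 3.5.1 were named. For SEACR's version, the allele rule and the depth, no source used here gives a statement. The total and highest deposited signal of a peak are the authors' coverage values (signal) and served only to rank or filter peaks within a list. The other deposited column, the position of the highest signal, was given by the authors and not used.

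Overlapping peaks were merged, and the percent of each gene with 2 kb on each side was computed for RefSeq GRCm38.p6 genes in Python 3.11.15 with pandas 2.3.3 and numpy 2.4.6, and plotted with matplotlib 3.10.9. Because the lists hold peaks and no counts, tests used limma 3.58.1 in R 4.3.3 (trend and robust options) on these percents. Code was tested on simulated data. The labels call replicates biological but tie none to an animal, so p-values measure the spread between these samples. Alternatives covered scaling, region, list length, filters, transformation, each library left out and a replicate block. All 10 members were named for every mark, and pathway genes if they passed. A gene among those most like Tlr9 is not reported here. The members and gene lists were chosen with earlier results of these data known.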

Additional observations from a re-analysis of the deposited data

Results flagged for a closer look

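In 11 groups of 4 or 5 libraries with a peak at a member, the highest and lowest library were checked for standing apart from the rest. A library with the only peak of its group stands apart by construction, so no chance rate is given. Such a library was found in 2 groups. Both were H2AK119Ub at 24 h, and in both it was the first library. It had 75.4% at Tlr4, where the other 4 libraries had 0%, and 33.2% at Unc93b1, where the others had 0% to 2.74%. This library had the highest autosomal coverage of its group, 8.65%, and the part of that coverage in these values was not tested.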

How the results depend on the processing

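No member changed direction among those past the threshold under any alternative. For H3K27me3 the count of members that passed was 1, Traf6. It was 0 after scaling by autosomal coverage, in the gene body, with lists of equal length and, in a setting chosen after seeing the data, in 2 kb each side of the start site (Traf6 adjusted p = 0.0551), and 2 with 5 kb flanks (Tlr3 and Traf6). Leaving out 1 library gave 1 to 2 (2 without replicate 2 at 24 h, where Tlr3 passed too), and Traf6 passed in all 10 such fits. For H2AK119Ub, where the count was 1, Irak4, it was 3 after scaling (Tlr3, Tlr6 and Traf6, with Irak4 at 0.0877), 3 with 5 kb flanks (Tlr3, Tlr9 and Irak4) and 3 around the start site (Tlr3, Irak4 and Traf6), where 38.8%, 36.8% and 33.1% of all genes tested passed. It was 5 after an arcsine square root (Tlr3, Tlr6, Tlr9, Irak4 and Traf6), with 43.6% of all genes passing, and 0 in the gene body (Irak4 adjusted p = 0.0763), with stricter lists, with lists of equal length and with no filter on genes (Irak4 adjusted p = 0.103). Leaving out 1 library gave 1 to 5, namely 2, 4, 2 and 5 without replicate 1, 2, 3 and 4 at 24 h, while 37.2%, 34.1%, 35.1% and 48.8% of all genes passed in these 4 fits, and Irak4 passed in all 12 such fits. Irak4 was not tested with stricter or equal lists, nor was Traf6 for H3K27me3 with equal lists, having a peak in fewer than 3 libraries. For H3K27ac, Ring1B, Suz12 and H3K9me3 no member passed in any limma setting (leave-one-out range 0 to 0).

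Over all genes, counts moved by over 1.5 times as follows. H3K27me3 had 6771, against 2363 scaled, 288 with equal lists and 1963 around the start site (leave-one-out 4163 to 7734). H2AK119Ub had 4597, against 2862 with stricter lists, 689 with equal lists, 2464 with no filter and 2811 around the start site (2459 to 6682). H3K9me3 had 1219, against 776 scaled, 682 stricter, 39 equal and 184 around the start site (890 to 1227). H3K27ac had 136, against 0 scaled, 0 with 5 kb flanks, 382 without trend and robust, 784 after arcsine and 720 around the start site (0 to 725). Suz12 had 0, against 1 scaled, 7 in the gene body, 160 stricter, 3 with no filter, 111 without trend and robust and 244 after arcsine (0 to 0). Ring1B had 15, against 72 scaled, 51 in the gene body, 1 with 5 kb flanks, 182 stricter, 126 equal, 1 with a peak in at least 1 library, 5 with no filter, 96 without trend and robust, 190 after arcsine and 0 around the start site (0 to 2). The cause was not tested. With no filter, H3K27me3, H3K9me3 and H3K27ac could not be fitted.

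The labels do not say whether same-numbered libraries are paired. Deviations of same-numbered libraries correlated between -0.214 and 0.0819, which cannot show whether they came from the same animal. With the replicate block, 0 members passed for H3K27me3 (Traf6 adjusted p = 0.0650), Irak4 passed for H2AK119Ub and Ly96 did not for H3K27ac (adjusted p = 0.263). Over all genes the block gave 4156 for H3K27me3, 2193 for H2AK119Ub, 0 for H3K27ac and 0 for Ring1B.

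Depth is unknown, and list length rose with time for the histone marks. The C57BL/6 allele, IgG background and expression were not analysed here.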
